A study of Homo sapiens with 12 samples.

Results

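The sites described here are 5344 positions in the chromatin of Huh7 cells that carried histone H3 acetylated at lysine 27 (H3K27ac) away from gene ends, with and without choline, beside histone H3 monomethylated at lysine 4 (H3K4me1). They were chosen by measured positions: each is an H3K27ac summit listed at 0 µM choline on chromosomes 1 to 22 or X, over 2.5 kb from both ends of every protein-coding gene. A second H3K27ac summit had to lie within 500 bp in the 15 µM list, and an H3K4me1 summit within 1 kb in the lists of both doses. A summit is the single base at which a peak caller placed the top of an enriched stretch. Of 37946 H3K27ac summits at 0 µM, 28584 were distal, 11292 of those were shared with the 15 µM list, and 5344 also had H3K4me1 at both doses. The rule thus kept 18.7% of distal summits and 14.1% of the whole list. These sites are called stable sites below, where stable means only that a summit was listed at both doses.

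Huh7 is an established human hepatocellular carcinoma line, and the cells were labelled wild type. They were kept for 48 h at 0 or 15 µM choline chloride in a custom choline-free DMEM, with B-27 in place of serum, which all groups used here shared. Each mark was measured at each dose in 1 chromatin immunoprecipitation sequencing (ChIP-seq) library from this single line, so no difference between doses or lists has a replicate check and no p-value is given. A 95% interval after a share of sites is the exact binomial one (Clopper-Pearson) and describes counting error alone.

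Enhancers are stretches of DNA away from a gene's start that raise its transcription when transcription factors bind them. H3K4me1, written by KMT2C and KMT2D, marks both poised and active enhancers, and H3K27ac, written by EP300 and CREBBP, marks the active ones and active promoters. In liver cells such elements are bound by factors of the HNF, FOXA and CEBP families. Choline is the head group of phosphatidylcholine and, through betaine, a donor of methyl groups.

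The lists held 37946 and 29305 H3K27ac summits and 343156 and 349202 H3K4me1 summits at 0 and 15 µM. Each summit has the authors' score, a -log10 significance value, which is used here only within a list. H3K27ac scores began at 5.01 at each dose and H3K4me1 scores at 1.31 and 1.30, and whether these minima are on the same scale is not known. Windows of 1 kb either side of H3K4me1 summits covered 10.6% of the mapped span at both doses, whereas windows of 500 bp around the 15 µM H3K27ac summits covered 0.936%.

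Among the stable sites were 39 within 5 kb of a microRNA hairpin, for 33 of the 1558 hairpins of the reference table. The ones shown are well-known liver or tumour microRNAs, picked after the values were seen, so that a reader can see which products lie beside these sites. Mature sequences are from RefSeq (GRCh38.p14), 5′ to 3′, with the seed (bases 2 to 8) in capitals. No seed is shared among them, and microRNA levels were not analysed here. No count of hairpins beside the other distal summits is given, so these numbers do not set the stable sites apart.
miR-122-5p: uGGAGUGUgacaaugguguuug
miR-194-5p: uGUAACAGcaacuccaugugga
miR-215-5p: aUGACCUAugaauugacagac
miR-148a-3p: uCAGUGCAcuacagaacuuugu
miR-21-5p: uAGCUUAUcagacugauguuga

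The site nearest MIR122, the most abundant microRNA of hepatocytes, lay 3069 bp upstream of the hairpin inside MIR122HG, its host transcript (mature arm at chr18:58451088-58451109, plus strand). Its H3K27ac scores were 47.2 at 0 µM and 35.3 at 15 µM, and its H3K4me1 scores were 2.34 and 4.48. Both H3K27ac scores were far above their list medians of 10.9 and 10.3. The H3K4me1 score was below its list median of 3.48 at 0 µM and above that of 3.47 at 15 µM. MIR194-1 and MIR215, a pair transcribed together from the minus strand of chromosome 1 inside IARS2, had stable sites 780 bp and 4226 bp upstream of MIR194-1. The nearer site scored 19.9 and 11.2 for H3K27ac and 13.2 and 16.6 for H3K4me1 at 0 and 15 µM. MIR148A, a microRNA abundant in liver, had a site 2505 bp upstream, with H3K27ac scores of 14.3 and 17.6 and H3K4me1 scores of 3.20 and 4.20. MIR21, which is raised in many tumours, had its site 4934 bp downstream, with H3K27ac scores of 36.0 and 16.3 and H3K4me1 scores of 3.48 and 19.7. Beside MIR122 and MIR148A, H3K4me1 was thus below its list median at 0 µM and above it at 15 µM. Beside MIR21 it was at the median at 0 µM and far above it at 15 µM.

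Because only protein-coding genes set the distance limit, some stable sites sat at starts of long noncoding RNAs (lncRNAs). Within 1 kb of a lncRNA start lay 125 of 5160 sites on the 22 chromosomes of the promoter table (2.42%, interval 2.02 to 2.88). The share was 2.24% (2.02 to 2.48) among distal summits not shared between doses, so the intervals overlap. Exactly 28 stable sites fell inside a lncRNA promoter window of 250 bases before to 50 after the start, in 28 of 12829 windows. The windows shown come from the 8 with the highest 0 µM H3K27ac scores: the highest, and the 3 holding a motif of a factor family named above or of AP-1, the FOS and JUN dimer. Capitals mark matches, searched on both strands, to AP-1 (TGANTCA), FOXA (TGTTTAC), HNF4 (CAAAGTCCA) or the GC box bound by KLF and SP factors (GGGCGGG). Sequences are RefSeq, GRCh38.p14, 5′ to 3′ on the gene's strand.
SNHG32: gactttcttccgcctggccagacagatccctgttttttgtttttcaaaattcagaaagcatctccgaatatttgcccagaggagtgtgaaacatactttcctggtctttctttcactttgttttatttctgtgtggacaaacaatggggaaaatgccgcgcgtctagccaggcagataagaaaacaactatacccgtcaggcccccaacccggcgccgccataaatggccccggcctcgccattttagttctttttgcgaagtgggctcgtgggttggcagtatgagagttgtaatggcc
LOC105374745: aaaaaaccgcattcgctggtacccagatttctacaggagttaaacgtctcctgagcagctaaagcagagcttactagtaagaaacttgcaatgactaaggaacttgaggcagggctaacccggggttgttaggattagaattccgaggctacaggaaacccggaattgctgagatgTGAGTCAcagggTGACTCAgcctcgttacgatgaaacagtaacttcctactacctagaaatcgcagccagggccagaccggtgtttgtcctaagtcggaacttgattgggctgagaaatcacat
LOC105377347: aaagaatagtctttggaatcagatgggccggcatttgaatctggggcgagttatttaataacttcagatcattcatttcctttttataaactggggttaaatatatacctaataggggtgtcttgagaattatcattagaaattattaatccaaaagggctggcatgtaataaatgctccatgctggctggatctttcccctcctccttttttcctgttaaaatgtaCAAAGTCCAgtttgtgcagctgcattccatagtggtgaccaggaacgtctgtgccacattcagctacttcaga
LINC03064: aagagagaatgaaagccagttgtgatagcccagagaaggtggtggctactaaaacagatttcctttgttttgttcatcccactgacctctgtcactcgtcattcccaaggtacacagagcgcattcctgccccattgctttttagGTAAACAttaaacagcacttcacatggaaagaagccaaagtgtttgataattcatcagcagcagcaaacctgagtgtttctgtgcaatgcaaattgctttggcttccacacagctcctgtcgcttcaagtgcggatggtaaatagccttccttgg

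The SNHG32 window (chr6:31834666-31834965, plus strand) held a site with H3K27ac scores of 96.0 and 21.5 and H3K4me1 scores of 7.41 and 3.73, and no match to the motifs. SNHG32 is a small nucleolar RNA host gene, and the nearest coding gene end, at 4535 bp, was that of HSPA1B, a heat shock chaperone. The LOC105374745 window (chr5:42950639-42950938, plus strand) held a pair of AP-1 matches, with H3K27ac scores of 37.9 and 35.6. The HNF4 match lay in the window of LOC105377347 (chr4:102621053-102621352, minus strand), 3921 bp from the nearest end of NFKB1, an inflammatory transcription factor. The FOXA match lay in the window of LINC03064 (chr16:52612028-52612327, plus strand), whose site was 64514 bp from the nearest end of TOX3. Over all 28 windows with a stable site, AP-1 matched in 5 (17.9%), FOXA in 1 (3.57%), the GC box in 5 (17.9%) and HNF4 in 1 (3.57%). The shares over all 12829 windows were 10.3%, 4.41%, 17.3% and 0.437%. With 28 windows, 1 window is 3.57%. A match is a description of letters, not a bound site.

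H3K4me1 was no more frequent beside shared H3K27ac summits than beside the others. It was present within 1 kb in both lists at 47.3% of the 11292 shared distal summits (46.4 to 48.3) and at 48.1% of the 17292 unshared ones (47.4 to 48.9). At 0 µM alone the shares were 67.0% and 67.1%, and at 15 µM 60.2% and 61.4%. The H3K4me1 criterion therefore kept nearly the same fraction of shared and unshared sites. Any statement that stable sites carry both marks rests on the rule, and the label of stable active enhancers is kept here only as the name of that rule.

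The H3K27ac score at 0 µM went with sharing and not with H3K4me1. When the distal summits were cut into deciles by score, 18.4% of the lowest decile and 79.7% of the highest had a 15 µM partner. The share with H3K4me1 at both doses stayed between 46.4% and 50.3% in the lower 9 deciles and was 42.3% in the highest. Stable sites accordingly made up 8.71% of the lowest decile and 34.2% of the highest. The lowest score in the highest decile was 26.4. Whether a low-scoring summit without a partner was lost at 15 µM or lay under the caller's threshold was not tested.

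**Figure D1:**
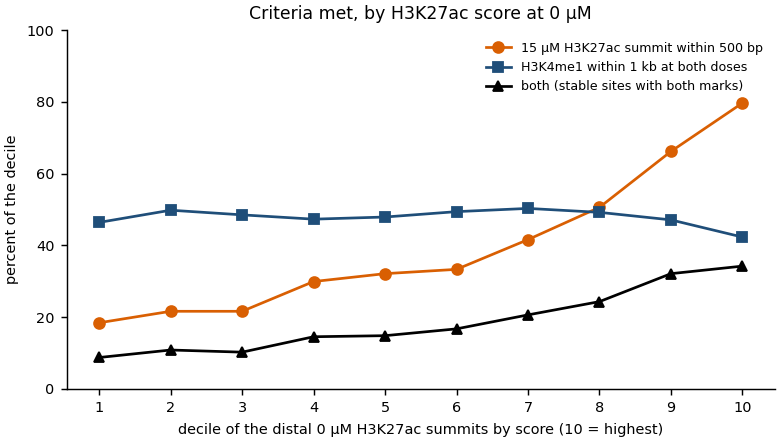
Percent of distal 0 µM H3K27ac summits that met each criterion, by decile of the 0 µM H3K27ac score (10 is the highest). The shared fraction climbs from 18.4% to 79.7%, while the fraction with H3K4me1 at both doses lies between 42.3% and 50.3%.

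The stable sites had a median H3K27ac score of 14.2 at 0 µM (range 5.09 to 171), against 10.9 for all summits of that list. Their partners at 15 µM had a median of 11.4 (range 5.03 to 82.8), against 10.3 for that list. Their nearest H3K4me1 summits had medians of 12.0 at 0 µM (1.45 to 63.9) and 15.8 at 15 µM (1.34 to 101), against list medians of 3.48 and 3.47. The H3K4me1 summits beside stable sites thus came from the upper end of their lists: 62.4% and 68.9% were in the top decile, compared with 18.3% and 13.7% for H3K27ac. No such shares are given for the other distal summits with H3K4me1 in both lists, so these shares do not set the stable sites apart. Across the 5344 sites, Spearman's rho was 0.45 between the H3K27ac scores of the doses and 0.67 between the H3K4me1 scores. Between the marks it ran from 0.09 to 0.13, so a strong H3K27ac site was hardly more likely to have a strong H3K4me1 summit. Sites share partners and H3K4me1 summits, and each list comes from 1 library, so these coefficients are descriptions.

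**Figure D2:**
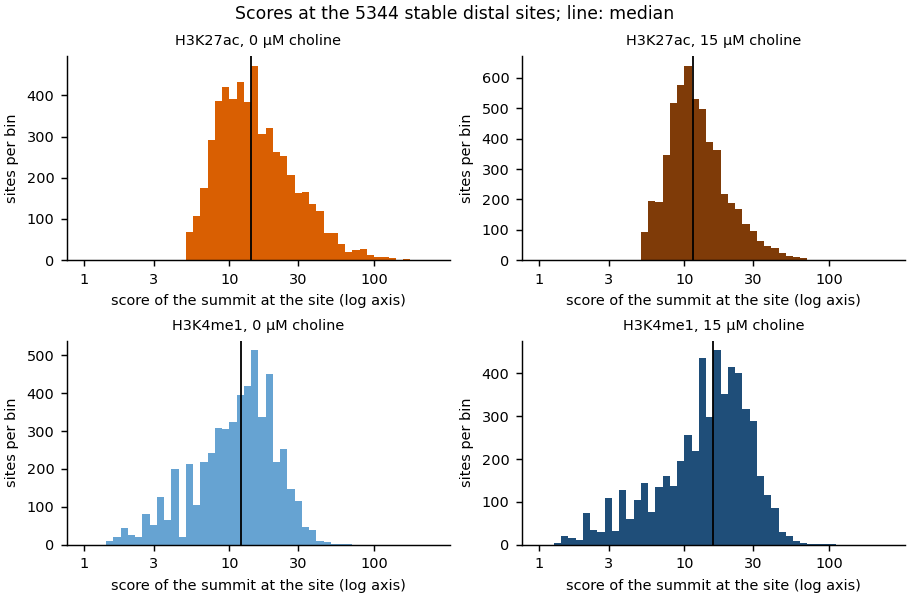
Histograms of the authors' scores at the 5344 stable sites, on a log axis, for the summit of each mark and dose. Vertical lines are medians (14.2, 11.4, 12.0 and 15.8); H3K27ac scores start at about 5 and H3K4me1 scores at about 1.3, where the lists begin.

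Sites were ranked by 0 µM H3K27ac score, taking 1 per 200 kb. The first lay on chromosome 6 in LGSN, 57865 bp from PTP4A1, a phosphatase linked to growth. Its H3K27ac scores were 171 at 0 µM and 82.8 at 15 µM, and its H3K4me1 scores were 23.9 and 10.9. Next came a site 95991 bp from RPS6KA3, a kinase of the MAPK pathway, with H3K27ac scores of 164 and 46.1 and H3K4me1 scores of 16.1 and 2.93. A site in APOO, a component of the mitochondrial inner membrane, scored 141 and 40.3 for H3K27ac and 3.60 and 17.7 for H3K4me1. The H3K4me1 summit by RPS6KA3 stood at percentile 97.0 of the 0 µM list and 38.2 of the 15 µM list, and that in APOO at 53.4 and 95.9. A site in BBOX1-AS1, an antisense lncRNA, was high in every list: its H3K27ac scores were 139 and 68.3, and its H3K4me1 scores of 63.9 and 101 were the highest of all stable sites. A site 24642 bp from LPIN2, a phosphatidate phosphatase of glycerolipid synthesis, had H3K27ac scores of 125 and 41.7. One 32129 bp from NID1, a basement membrane protein, had 122 and 50.5 with H3K4me1 at 5.09 and 2.93. Over the 10 sites of this ranking, H3K4me1 stood at percentile 53.4 or higher of the 0 µM list and 16.7 or higher of the 15 µM list.

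The remaining 4 of those 10 sites had 0 µM H3K27ac scores of 128 to 132, and 1 of them lay inside GALNT13. The others had as nearest coding genes EEA1 (205976 bp away, inside LOC643339), RHOU (91744 bp) and UBE2E3 (216786 bp, inside the lncRNA SCHLAP1). By 0 µM H3K4me1 score, the site in BBOX1-AS1 was followed by one in the pseudogene PI4KAP2, at 60.4 at 0 µM and 80.6 at 15 µM. PI4KAP2 has near-identical copies on chromosome 22, so its values are uncertain. A site 83113 bp from NUBPL, an iron-sulphur assembly factor of complex I, scored 56.9 and 89.5 for H3K4me1 and 62.3 and 31.0 for H3K27ac. Another, in IRAK2, a kinase of Toll-like receptor signalling, scored 55.2 and 37.3 for H3K4me1 and 61.3 and 46.1 for H3K27ac. The last, in PACS1, a sorting protein, scored 50.3 and 69.9 for H3K4me1 but 11.4 and 7.81 for H3K27ac, at percentiles 52.9 and 21.5 of those lists.

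The partner at 15 µM lay a median of 154 bp from the 0 µM summit, within 50 bp at 24.3% of sites. The 5344 sites had 5159 distinct partners, 183 of which served more than 1 site. The nearest H3K4me1 summit lay a median of 394 bp away at 0 µM and 410 bp at 15 µM. Those H3K4me1 summits of the doses were a median of 369 bp apart, and within 250 bp of each other at 37.4% of stable sites (36.1 to 38.7). At unshared summits with H3K4me1 in both lists, a group of 8325 sites added after the data were seen, the share was 37.7% (36.6 to 38.7).

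Most stable sites had a single H3K4me1 summit within 1 kb, 4187 of 5344 at 0 µM and 4545 at 15 µM. A single summit can lie only on 1 side, so H3K4me1 usually lay on 1 side of the site. Summits flanked it on both sides within 1 kb at 18.5% of stable sites at 0 µM (17.5 to 19.6) and at 668 sites at 15 µM (interval 11.6% to 13.4%). Unshared summits with H3K4me1 in both lists had 21.4% (20.5 to 22.3) and 17.3% (16.5 to 18.1), and stable sites had the higher share on 5 and 3 of 23 chromosomes. Exactly 2 summits lay within 1 kb at 1045 stable sites at 0 µM and 745 at 15 µM, and 3 or more at 112 and 54. Numbers of summits were not matched in these comparisons of doses and groups, so whether sidedness differs beyond summit number was not tested. Both flanks were marked at both doses at 225 sites (4.21%). Of the 3910 sites with H3K4me1 on 1 side at both doses, 2319 had it on the same side (59.3%, 57.8 to 60.9). Over all stable sites the nearest H3K4me1 summit was on the same side at both doses at 58.7% (57.3 to 60.0). At unshared sites with H3K4me1 in both lists the share was 57.5% (56.5 to 58.6). H3K4me1 summits were thus often placed differently in the lists of the doses in both groups. Whether this exceeds the variation between libraries was not tested.

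Around all shared distal summits, taken before any choice by H3K4me1, summits of that mark were dense over several kb with a small rise at the centre. At 0 µM there were 87.8 H3K4me1 summits per 1000 sites per 100 bp of distance within 200 bp, and 71.3 at 1 to 2 kb. The mean over the mapped span was 23.2 on the same scale. At 15 µM the values were 78.6, 59.2 and 23.6. The rise at the centre was small beside the excess over the genome mean, which reached to 5 kb (71.4 and 64.9 at 3 to 5 kb). The step at 1 kb in the stable sites is made by the rule.

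**Figure D3:**
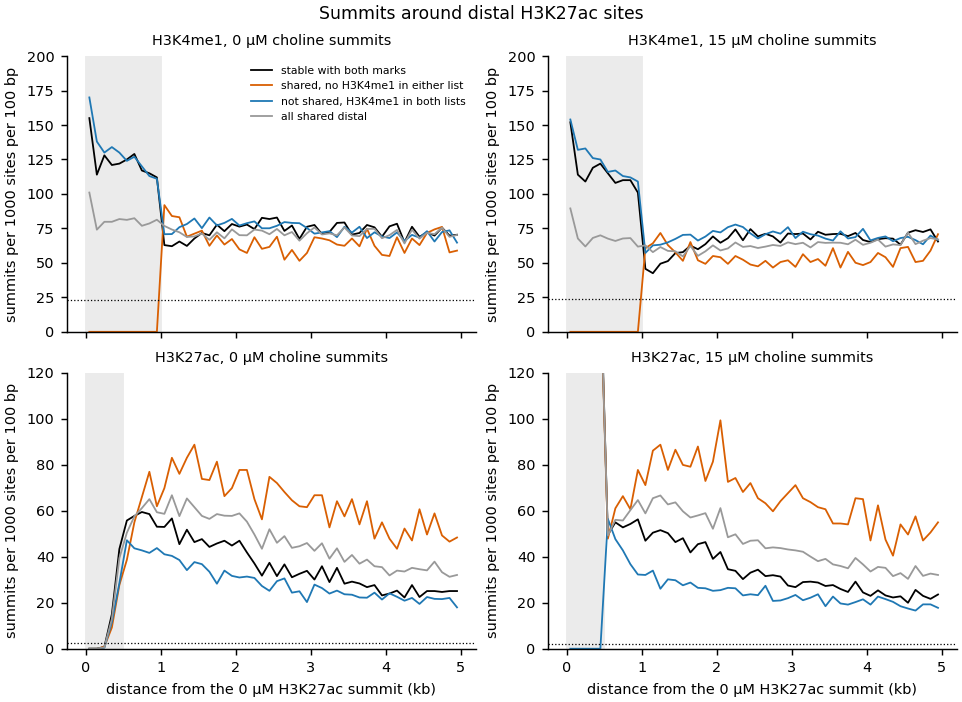
Summits per 1000 sites per 100 bp, by distance from the 0 µM H3K27ac summit, for each mark and dose. Grey marks distances at which summits set the groups or merge, the dotted line is the mean over the mapped span, and the 15 µM H3K27ac values inside 500 bp, up to 287, run off the axis; at 1 to 2 kb, H3K27ac around stable sites (48.3 at 0 µM, 46.7 at 15 µM) lies below that around shared sites without H3K4me1 (76.6, 81.2) and above that around unshared sites with it (35.6, 28.7).

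Stable sites had fewer H3K27ac neighbours than the other shared sites. Between 0.5 and 5 kb away they had a mean of 1.67 other H3K27ac summits at 0 µM (SD 1.50 over sites) and 1.57 at 15 µM (SD 1.61). Shared distal sites with H3K4me1 in 1 list had 2.32 and 2.28, and those with it in neither list 2.84 and 2.96. Unshared summits with H3K4me1 in both lists had 1.31 and 1.15. Stable sites were below both other shared groups and above this unshared group on all 23 chromosomes at both doses. All unshared summits together had 1.64 and 1.49, close to the stable sites, which were the higher on 15 and 18 of 23 chromosomes. These neighbours played no part in the rule, but chromosomes of 1 library are not replicates.

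Beyond the rule's window, H3K4me1 itself differed less. Stable sites had 2.93 summits of the mark at 1 to 5 kb at 0 µM (SD 1.62) and 2.64 at 15 µM (SD 1.55). Shared sites with no H3K4me1 within 1 kb still had 2.63 and 2.18, and unshared sites with it in both lists 2.96 and 2.77. There were more H3K4me1 neighbours at 0 µM at 2348 stable sites, more at 15 µM at 1725, and equal numbers at 1271. The 15 µM H3K4me1 list was the longer (ratio 1.02), and scaled to its length the 0 µM mean was 2.98. For H3K27ac the 15 µM list was shorter (ratio 0.772), and the scaled 0 µM mean of 1.29 neighbours lay below the 1.57 at 15 µM. Every comparison group went the same way for both marks. Unshared sites had a scaled 0 µM mean of 1.26 H3K27ac neighbours against 1.49 at 15 µM. More H3K4me1 neighbours were found at 0 µM at 7428 unshared sites and at 15 µM at 5561.

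The stable sites lay less often inside protein-coding genes than the other distal sites. They did so at 57.7% (56.3 to 59.0), against 64.8% (63.2 to 66.4) of shared sites with H3K4me1 in 1 list, 72.3% (70.5 to 74.2) of those without it and 63.0% (62.3 to 63.7) of unshared sites. The stable share was the higher on 3, 1 and 3 of 23 chromosomes. It was also below that of unshared sites with H3K4me1 in both lists (60.5%, 59.4 to 61.5), but higher than it on 9. Outside coding and lncRNA genes lay 30.3% of stable sites (29.1 to 31.6) and 19.5% of shared sites without H3K4me1 (17.9 to 21.2). Their distance to the nearest coding gene end, a median of 34509 bp, and the 40.1% over 50 kb away were close to the other groups' (38.9% to 39.9% over 50 kb).

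Most stable sites had no other stable site within 12500 bp, although 74.8% had another 0 µM H3K27ac summit 0.5 to 5 kb away. Joined at gaps of at most 12500 bp, the distance used for stitching super-enhancers, the stable sites made 4122 stretches. Of these, 3239 were of a single site (60.6% of sites, 59.3 to 61.9) and 659 of a pair. Just 787 sites (14.7%) were in the 224 stretches with at least 3. Among all distal summits joined the same way, 61.7% of stable sites (60.4 to 63.0) fell in a stretch of at least 3, against 87.7% (86.3 to 89.0) of shared sites without H3K4me1, 61.0% (60.2 to 61.7) of unshared sites and 52.0% (51.0 to 53.1) of unshared sites with H3K4me1 in both lists. Stable sites were thus in such stretches less often than the shared sites without H3K4me1, and about as often as unshared ones.

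The stretch with the most stable sites held 7 over 17.2 kb in ATP9A, a lipid flippase gene, next to SALL4, an oncofetal transcription factor of fetal liver and hepatocellular carcinoma. Their H3K27ac scores ran from 7.69 to 21.4 at 0 µM and from 6.44 to 12.48 at 15 µM. The strongest H3K27ac summit of that stretch, with a score of 70.54 at 0 µM, was no stable site: it had neither a 15 µM H3K27ac summit within 500 bp nor a 15 µM H3K4me1 summit within 1 kb. The remaining 0 µM H3K27ac summits of the stretch that were not stable sites scored 9.62 to 13.33. Stable sites at 19.42, 20.15 and 21.43 scored above those. A stretch of 6 near MMD, on chromosome 17, spanned 27.5 kb, with H3K27ac scores from 7.78 to 37.9 at 0 µM and from 5.92 to 50.2 at 15 µM. In VTI1A, a vesicle fusion protein, 6 sites over 17.6 kb had H3K27ac scores from 7.53 to 42.3 at 0 µM, and the stretch contains MIR4295.

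A pair of stretches of 6 on chromosome 10, by ANXA8 and by SYT15, lie in duplicated sequence with near-identical copies, so reads there may be split between copies and the sites are uncertain.

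**Figure D4:**
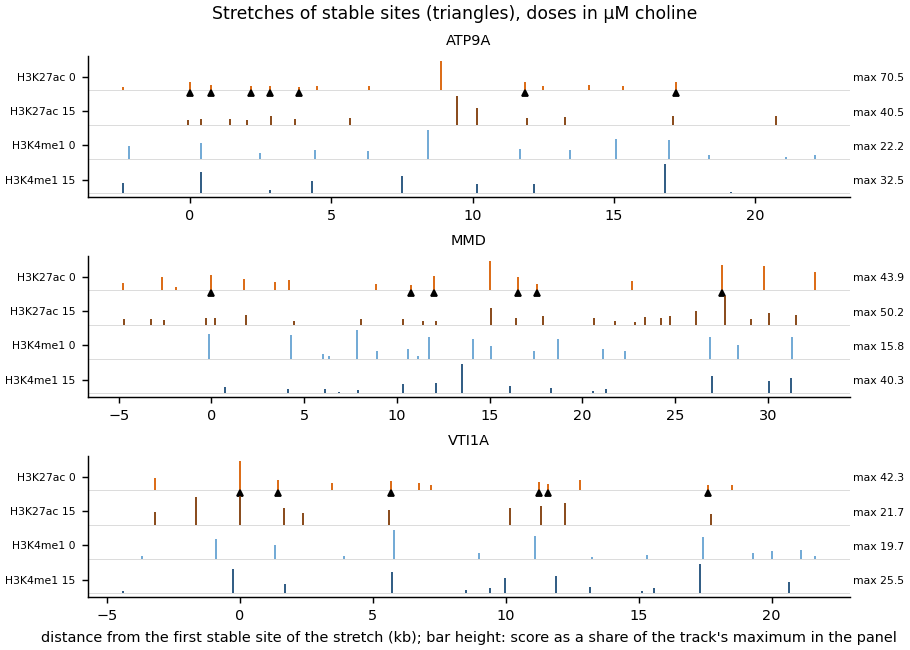
Summits in the 4 lists around 3 stretches of stable sites (triangles), by distance from the first stable site in kb; bar height is the score relative to the track's maximum, printed at the right. In ATP9A the highest 0 µM H3K27ac bar (70.54) carries no triangle, while 7 lower ones do.

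Of 19974 protein-coding genes, 4196 had a stable site inside them or within 50 kb of an end (21.0%, 20.4 to 21.6). Genes with one were longer, at a median of 45.0 kb against 20.9 kb for those without, so a long gene has a wider window to hold a site. The gene nearest to the most stable sites was CITED2, a transcriptional co-regulator that binds CREBBP and EP300, with 22, all between 111 and 1129 kb from it in a gene-poor stretch of chromosome 6. Their H3K27ac scores had a median of 16.8 (7.15 to 36.8) at 0 µM and 15.7 (6.98 to 22.9) at 15 µM. RPS6KA3 was nearest to 18, LPP, a cell adhesion protein, to 16, and FOXP1, a forkhead repressor, to 14. FOXP1 also had the most stable sites in its window of all coding genes, 14.

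PTPRK, a receptor phosphatase, was nearest to 13, GRIK2, a glutamate receptor subunit, to 12, and ADGRL2 and FILIP1L to 11 each. The sites nearest GRIK2 lay 111 to 1275 kb away, and which gene they act on was not tested. MCTP2 was nearest to 10, all 361 to 783 kb away, with a median H3K27ac score of 39.0 at 0 µM (11.6 to 76.3) and 13.2 at 15 µM (7.69 to 26.9). GPC3, glypican-3, a surface marker of hepatocellular carcinoma, was nearest to 11 sites, between 2.69 and 100 kb from its ends. Their H3K27ac scores ran from 7.45 to 26.9 (median 17.2) at 0 µM and from 8.17 to 27.5 (median 15.9) at 15 µM. H3K4me1 there ran from 4.39 to 14.5 at 0 µM and from 6.43 to 35.5 at 15 µM. The window of GPC3 held 63 distal 0 µM H3K27ac summits, 20 of them shared, so these 11 were a minority of a densely acetylated locus.

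Liver transcription factors had stable sites more often than coding genes as a whole. Of 25 genes in the list, 16 had at least 1 (64.0%, 42.5 to 82.0), against 21.0% of all coding genes. Their median gene length was 32.9 kb, and 48 of the 234 distal H3K27ac summits in their windows were stable sites (20.5%), against 18.6% over all genes' windows. In these sums, here and for the lists below, a summit in overlapping windows counts once for each gene. These genes thus had many distal H3K27ac summits, at about the usual fraction stable. PROX1, a hepatoblast factor, had 6 stable sites, and HNF4A, a master regulator of hepatocytes, 5. The strongest in HNF4A lay inside the gene, 23755 bp from an end, with H3K27ac scores of 48.8 and 45.3 and H3K4me1 scores of 38.5 and 17.8. CEBPA, NR1H4 (the bile acid receptor FXR), NR5A2 and XBP1, named here after their values were seen, had 4 each.

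Genes for hepatocyte plasma proteins and enzymes had one at 12 of 30 (40.0%, 22.7 to 59.4). With sites over 10 kb from gene ends the share was 13.3%, against 13.7% of all coding genes in that setting. Of the 168 distal summits in their windows, 21 were stable sites, a smaller share than the 18.6% over all genes. ALB, which encodes serum albumin, and its neighbour AFP, the fetal form, shared the same pair of sites between them. The one nearer ALB, 3382 bp away, scored 6.73 and 6.98 for H3K27ac and 3.60 and 7.55 for H3K4me1. The other scored 10.2 and 11.7, and 8.50 and 10.6. Both lay below the 0 µM H3K27ac list median of 10.9, and the second lay above the 15 µM median of 10.3. The ALB window held 18 distal summits. CYP3A4, the main drug-oxidising cytochrome of liver, had 3, with 0 µM H3K27ac scores of 5.93, 9.76 and 8.44. Their 15 µM scores were 11.7 for the first pair, which share a partner, and 12.0. They lay 27121 to 48575 bp outside CYP3A4, the pair nearest to CYP3A7-CYP3A51P and the last to CYP3A43. A site in a gene's window can thus lie nearer to another gene, here and in the other lists.

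Among genes of choline uptake and phosphatidylcholine synthesis, 7 of 16 had a stable site (43.8%, 19.8 to 70.1), and 15 of 78 distal summits were stable (19.2%). SLC44A1, a choline transporter, had 5, all inside the gene. The H3K27ac scores of these 5 were 25.1, 17.1, 6.91, 8.65 and 36.1 at 0 µM and 25.5, 15.5, 12.1, 11.1 and 39.1 at 15 µM, so strong sites were strong in both lists. CHKA, choline kinase, which commits choline to phosphatidylcholine, had 3, between 16769 and 18493 bp beyond an end, the strongest scoring 45.6 and 21.1. The gene nearest to all 3 was KMT5B. SLC44A3 had 2. Of 16 genes of the betaine and methionine cycle, SARDH, sarcosine dehydrogenase, and AHCY, which hydrolyses S-adenosylhomocysteine, had 2 each and the others none (interval 1.55% to 38.3%). The stronger site of SARDH scored 51.7 and 43.7.

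Sterol and fatty acid synthesis had a stable site at 13 of 20 genes (65.0%, 40.8 to 84.6), though 18 of 107 distal summits were stable (16.8%). ACACA and ACACB, the acetyl-CoA carboxylases, and ELOVL2, an elongase of polyunsaturated fatty acids, had 2 each. The stronger ACACB site scored 28.1 and 18.4 for H3K27ac. Of 15 oncofetal and progenitor genes, 6 had one (40.0%, 16.3 to 67.7). GPC3 led these with 11, and SALL4 had 8, of which 7 are the ATP9A stretch. LIN28B, an RNA-binding protein that blocks let-7 maturation, had 6, all inside the gene, with H3K27ac scores of 6.80 to 9.64 at 0 µM and up to 13.3 at 15 µM, and 0 µM H3K4me1 scores of 5.99 to 27.4. All 6 of the LIN28B sites lay below the 0 µM H3K27ac list median of 10.9, and 2 lay above the 15 µM median of 10.3.

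Receptor tyrosine kinase and growth factor genes had a stable site at 10 of 18 (55.6%, 30.8 to 78.5). Their median length, 63.2 kb, was the longest of the lists. INSR, the insulin receptor, had 6, EGFR, the epidermal growth factor receptor, 5, and MET, the hepatocyte growth factor receptor, 3. The strongest of MET scored 62.8 and 19.5 for H3K27ac and 3.60 and 9.18 for H3K4me1. In EGFR the range at 0 µM was 7.28 to 29.8, within a window of 45 distal summits. YAP and TEAD targets had one at 8 of 16 (interval 24.7% to 75.3%), with 2 each at ANKRD1, AMOTL1 and LATS2. Cell cycle genes had one at 6 of 16 (37.5%, 15.2 to 64.6), led by CCND1, cyclin D1, with 3.

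KLF and SP factors had one at 7 of 14, led by KLF12 with 4 and KLF3 with 2. KLF5, the factor named in the title of the study, had 1 of its 4 distal H3K27ac summits among the stable sites, 14049 bp from the gene on chromosome 13. It scored 39.9 and 21.5 for H3K27ac and 17.1 and 28.5 for H3K4me1, with a partner 41 bp away. A KLF5 summit scoring 22.5 had its nearest 15 µM summit 520 bp away and its nearest H3K4me1 summits 3032 and 1894 bp away at 0 and 15 µM, so it missed every limit but the gene distance. The other 2 summits scored 15.5, with H3K4me1 within 1 kb at 15 µM alone, and 22.4, with neither a partner nor H3K4me1 near enough.

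AP-1 and immediate early genes had one at 3 of 14 (21.4%, 4.66 to 50.8), close to the 21.0% of all genes, with 3 at JUN, 2 at IER3 and 1 at FOSB. Ubiquitous genes had one at 3 of 16 (18.8%, 4.05 to 45.6), and so did blood cell markers. Fibroblast, stellate and endothelial markers had one at 1 of 16 (6.25%, 0.158 to 30.2), which was PECAM1, and neuron and muscle markers at 2 of 16 (interval 1.55% to 38.3%). COL1A1, COL1A2 and NEUROD1 had none. The lists of other cell types had shares below the 21.0% of all coding genes, but each of their intervals includes 21.0%. Blood cell markers had the same share as ubiquitous genes, so no difference from coding genes as a whole is read from these lists. The lists of other cell types had few distal summits. Of those, 4 of 8 were stable for blood cell markers, 4 of 12 for neuron and muscle markers and 2 of 17 for the fibroblast, stellate and endothelial list. The gene lists were chosen with earlier results known and differ in gene length, so their shares are descriptions and not enrichments.

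**Figure D5:**
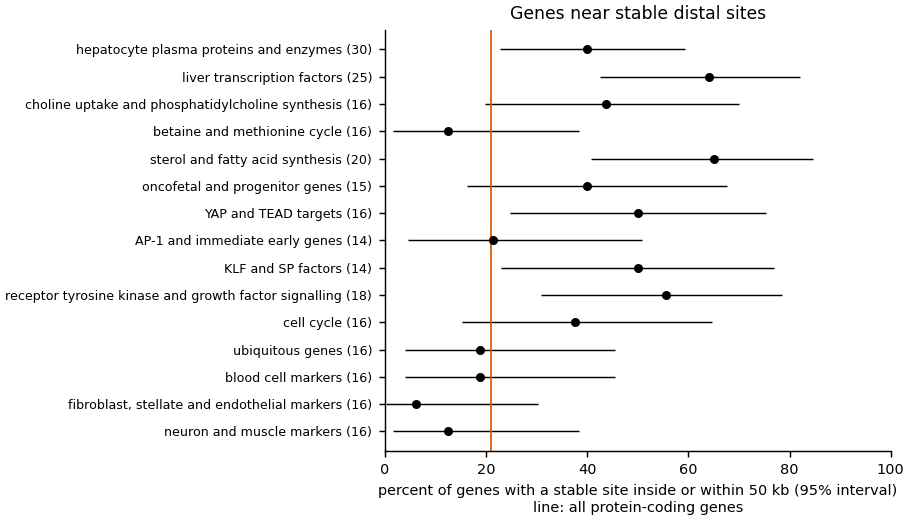
Percent of the genes of each list, with the number of genes in brackets, that have a stable site inside or within 50 kb; bars are exact 95% intervals for counting error. The vertical line is the 21.0% of all coding genes; liver transcription factors (64.0%) and sterol and fatty acid synthesis (65.0%) lie farthest above it.

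The limits of the rule fell on a continuum of values. Within 100 bp inside the 500 bp limit lay 642 stable sites with a median 0 µM H3K27ac score of 13.2, and within 100 bp outside it 458 distal summits that met the other criteria, with a median of 12.0. At the 1 kb limit for 0 µM H3K4me1, 285 sites inside had a median of 15.8 and 200 outside 17.0. At 15 µM, 326 inside had 15.3 and 269 outside 16.9. At the gene-end limit, the 73 sites in the 250 bp inside had a median of 12.7 and the 52 outside 12.3. Sites just inside and just outside each limit thus had similar scores. By chromosome, stable sites were between 16.1% (chromosome 14) and 20.4% (chromosome X) of distal summits.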

How the data were processed

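Of the 12 samples, 4 were used, the H3K27ac and H3K4me1 ChIP-seq libraries at 0 and 15 µM choline, and the other 8 were not analysed here. The authors deposited 1 list of summits per library, with a position and a score. The authors deposited the score in the layout of a MACS2 summit file, where it is −log10 of either the p-value or the q-value, and no source says which. Per the submitters' processing notes the build was hg38 and the tools included MACS2, Bowtie, deepTools and Picard, with no versions listed. Whether inputs entered the calling is not given, and read depth is unknown. Summits off chromosomes 1 to 22 and X were left out (38 and 27 for H3K27ac, 422 and 429 for H3K4me1, at 0 and 15 µM).

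Distances, shares with exact Clopper-Pearson 95% intervals, neighbours and stretches were computed in Python 3.11.15 (numpy 2.4.6, pandas 2.3.3, scipy 1.17.1, matplotlib 3.10.9) with RefSeq GRCh38.p14 gene ends (19974 protein-coding genes), and the site rule was tested on planted sites. The sites, gene lists and comparisons were chosen with earlier results of these data known. Sites and genes were named by rule: highest scores, most sites nearest or in a stretch, up to 3 genes per list by number of sites, and KLF5; those picked after their values were seen are marked so, and 1 gene that the rule names is not reported here. With 1 library per group no test was run. Alternatives varied each distance, the score minimum and the list the sites were taken from.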

Additional observations from a re-analysis of the deposited data

How the results depend on the processing

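No paired analysis was possible because each mark and dose had 1 library and the labels carry no replicate numbers. For the same reason leaving out a library was not possible. Values are given as reported and then under each alternative. The 5344 sites, 18.7% of distal summits, became 3480 (12.2%) with a partner within 250 bp, and 24.4% within 1000 bp. With H3K4me1 within 500 bp they were 2198 (7.69%), and within 2 kb 8625 (30.2%). With H3K27ac scores of at least 10 they were 2791 (17.6%), and with H3K4me1 scores of at least 5, 16.0%. Taken from the 15 µM list the share was 22.9%, and with sites within 1 kb counted once 17.4%. With the 0 µM list cut to the length of the 15 µM list, chosen after seeing the data, it was 21.4%.

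The share inside coding genes (57.7%) was 59.6% with H3K4me1 within 2 kb and 55.5% with H3K27ac scores of at least 10. H3K4me1 on both sides (18.5% at 0 µM and 668 sites at 15 µM) was 20.1% and 13.8% with H3K4me1 within 500 bp, 13.8% and 8.71% within 2 kb, and 10.4% and 6.17% with H3K4me1 scores of at least 5. It stayed lower at 15 µM in each. Both sides were counted within 1 kb in every setting. With the 2 kb limit, sites with no H3K4me1 summit within 1 kb at a dose therefore entered the share but could not be flanked. The H3K4me1 score minimum also lowered the mean H3K4me1 neighbours at 1 to 5 kb from 2.93 to 1.29 and from 2.64 to 1.05.

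The share of sites in stretches of at least 3 (14.7%) was 7.47% and 22.1% with partners within 250 and 1000 bp, 5.05% and 28.9% with H3K4me1 within 500 bp and 2 kb, and 4.05% with H3K27ac scores of at least 10. It was 10.7% both with H3K4me1 scores of at least 5 and with close sites counted once, 11.3% with the cut list and 6.40% when joined at 5 kb. The share of coding genes with a site within 50 kb (21.0%) was 16.3%, 23.5%, 11.5% and 26.2% under the 4 distance changes in the same order. It was 24.5% and 13.7% with sites over 1 and 10 kb from gene ends, 14.0% and 18.7% with the H3K27ac and H3K4me1 score minimums, 19.7% with the cut list, and 13.6% and 31.1% in windows of 20 and 100 kb. The share of hepatocyte genes (40.0%) fell to 13.3% with sites over 10 kb from gene ends. The cause of these changes was not tested beyond the settings themselves. All counts of sites therefore depend on the distances chosen, and thresholded lists of unknown depth from 1 library per dose cannot separate a lost summit from one that missed the caller's threshold.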
